A study of Mus musculus with 19 samples.

Results

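The Schlafen genes Slfn1, Slfn2, Slfn3, Slfn4, Slfn5, Slfn8 and Slfn9 and the gene Samd9l were followed through 19 mouse medulloblastomas, each measured on 1 expression array. The members were all probe sets that the platform annotation assigns to one of these 8 genes. A probe set is the group of short probes by which the array reads a transcript. The 8 genes are among 18193 named on the array. There were 13 such probe sets among 45037, of which 12 named 1 gene and 1 was shared by Slfn3 and Slfn4. The genes were chosen by the measured difference between drug-treated and vehicle tumours in these same arrays, in which Slfn8 and Samd9l were low. The members' differences between treated and vehicle tumours are therefore given as a description, without p-values. Genes that are no members carry the adjusted p of that contrast, but their lists too were drawn up with earlier results known. The difference between the 2 doses uses no vehicle signal and was tested. Its standard errors and p-values rest on a spread estimated from all 3 groups, vehicle included, as does the filter on dim signals on all arrays.

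All tumours had the genotype Ptch+/-p53-/- and grew under the skin of nude mice (Harlan nu/nu) from dissociated tumour cells. Nude mice lack a working thymus and with it mature T cells of the usual kind, but keep B cells, natural killer cells and myeloid cells. Vehicle was given in 3 tumours, which the labels call sensitive. The compound NVP-LDE225 blocks Smoothened, the membrane protein that passes on the Hedgehog signal. It was given at 40 mg/kg in 8 tumours and at 160 mg/kg in 8, all with the tumour status resistant in the labels, from about 10 days after implantation. Treatment and resistance thus cannot be told apart, and no age or length of treatment was used here. The labels do not state that every tumour came from a mouse of its own, so the p-values cover only the variation among these samples, which may be technical. The labelled tumour type was checked against a list of granule neuron lineage genes, which does not separate precursors from later stages. Of these, 14 of 14 passed the filter on dim signals. Their summed signal was 11800 to 13000 in vehicle, 17600 to 21600 at 40 mg/kg and 14100 to 24600 at 160 mg/kg tumours. The brightest were the transcription factors Zic1 (mean 4720) and Neurod1 (mean 3240). The 2 arrays least like the others were vehicle tumour 3 and 160 mg/kg tumour 2, with median correlations of 0.928 and 0.931 to the remaining arrays.

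Schlafen proteins take their name from the German word for sleeping, because the first of them was found to hold T cells in a resting state. Many are induced by type I interferon, which acts through a receptor at the cell surface and raises genes whose promoters hold an interferon-stimulated response element, where the factor Irf9 takes part in binding. The short Schlafens (Slfn1 and Slfn2) act in lymphocytes and myeloid cells, the intermediate ones (Slfn3 and Slfn4) are known from T cells and macrophages, and the long ones (Slfn5, Slfn8 and Slfn9) carry an additional helicase-like region. SAMD9L is an interferon-induced protein that restricts viruses and cell growth and slows translation.

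In the gene table for GRCm38.p6 the Schlafen members formed a single cluster on chromosome 11, in the order Slfn5, Slfn9, Slfn8, Slfn2, Slfn1, Slfn4 and Slfn3, with the pseudogene Slfn10-ps between Slfn8 and Slfn2. Samd9l lay apart on chromosome 6. The promoters of Slfn9, Slfn8 and Samd9l are shown because these genes had the lowest signals in treated relative to vehicle tumours. The sequences are from RefSeq (GRCm38.p6), run 5′ to 3′ on the gene's strand from 250 bases before the transcript start to 50 after it, and are at chr11:82991781-82992080 (minus strand), chr11:83020761-83021060 (minus strand) and chr6:3399522-3399821 (minus strand). Capitals mark matches to the core of the interferon-stimulated response element, searched on both strands as GAAA, any 2 bases and GAAA again.
Slfn9: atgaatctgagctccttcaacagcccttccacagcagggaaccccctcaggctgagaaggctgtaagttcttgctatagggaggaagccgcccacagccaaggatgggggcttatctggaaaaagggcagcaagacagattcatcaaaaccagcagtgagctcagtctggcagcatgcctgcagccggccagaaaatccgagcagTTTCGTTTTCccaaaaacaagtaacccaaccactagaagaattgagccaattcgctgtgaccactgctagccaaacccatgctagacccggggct
Slfn8: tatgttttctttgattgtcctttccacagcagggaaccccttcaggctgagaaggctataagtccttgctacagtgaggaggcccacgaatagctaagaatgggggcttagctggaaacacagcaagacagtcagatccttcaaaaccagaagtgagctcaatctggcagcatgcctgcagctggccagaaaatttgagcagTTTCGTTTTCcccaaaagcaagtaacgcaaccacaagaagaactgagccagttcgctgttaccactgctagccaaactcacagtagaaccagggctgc
Samd9l: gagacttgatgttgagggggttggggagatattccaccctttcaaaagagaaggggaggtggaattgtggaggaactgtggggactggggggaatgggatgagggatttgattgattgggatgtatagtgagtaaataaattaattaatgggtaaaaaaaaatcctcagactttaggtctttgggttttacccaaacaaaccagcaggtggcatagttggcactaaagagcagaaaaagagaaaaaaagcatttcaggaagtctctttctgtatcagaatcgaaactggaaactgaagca
Slfn8 and Slfn9 shared the match TTTCGTTTTC, which reads GAAAACGAAA on the other strand. It began 48 bases before the start in the Slfn8 promoter shown and 45 before it in Slfn9. RefSeq holds another start for Slfn8, with its window at chr11:83020673-83020972, and from that start the same match begins 136 bases before. Along the aligned 300 bases the promoters of Slfn8 and Slfn9 were identical in 252 of 312 alignment columns (80.8%), whereas every other pair among the 8 genes lay between 46.5% and 53%. Slfn5 was the remaining member with a match (GAAAAAGAAA, 155 bases before the start), in a run rich in adenine. Samd9l, Slfn1, Slfn2, Slfn3 and Slfn4 had none of these letters in the window. Of 32851 promoters of this length, 3.44% held such a match. A match describes letters and no binding was measured.

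The signals below are the deposited MAS5 values on a linear scale. Tests used limma on log2 of the signal plus 2.5, with Benjamini-Hochberg adjustment over the 31143 probe sets that exceeded the 40th percentile of their array (a signal of 19.7 to 33.3) on at least 3 arrays. Of the 13 member probe sets 9 passed that filter. Both Slfn1 probe sets and 2 of the 3 for Slfn5 did not, and are described by their signals alone. The 3 probe sets with the largest falls against vehicle belonged to Slfn8, Slfn9 and Samd9l. They were also the 3 member probe sets called at an adjusted p under 0.05 in the mean of both doses against vehicle, and all 3 were lower. Of all probe sets 4.47% were called in either direction and 1.83% lower. Since that contrast led to the choice of members, nothing is read from this count, which was 1 when vehicle tumour 3 was left out and when both of the arrays that stood apart were.

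Slfn8, a long Schlafen, had signals of 100.3, 164.5 and 194.6 in the vehicle tumours. At 40 mg/kg the lowest, median and highest signals were 25.3, 33.9 and 67.6, and at 160 mg/kg they were 17.6, 26.4 and 36.1. The groups did not overlap: 16 of 16 treated tumours lay below all vehicle tumours, as they did in 2.01% of all probe sets tested. The highest treated values were those of 40 mg/kg tumours 6 and 8, at 67.6 and 67.0. The log2 difference from vehicle was -1.88 (SE 0.29) at 40 mg/kg and -2.42 (SE 0.29) at 160 mg/kg, which is 3.67-fold and 5.34-fold lower on the scale with the pseudocount.

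Slfn9, the long Schlafen next to Slfn8 on the chromosome, has a pair of probe sets. The brighter gave 277.5, 310.6 and 310.1 in vehicle tumours. It ran from 95.9 to 172.5 (median 138) at 40 mg/kg and from 78.0 to 223.2 (median 124) at 160 mg/kg. Again 16 of 16 treated tumours lay below all vehicle tumours, as they did in 2.01% of all probe sets tested. The highest treated values were 223.2 and 196.7 in 160 mg/kg tumours 3 and 5. On this probe set the treated tumours with most signal were thus not those with most Slfn8. Within the 40 mg/kg tumours, tumour 6 was highest (172.5), as for Slfn8. On the dimmer probe set it was the highest of all treated tumours (45.2). The log2 differences from vehicle were -1.23 at 40 mg/kg and -1.18 at 160 mg/kg (SE 0.25 each).

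The dimmer Slfn9 probe set gave a smaller difference. Its vehicle signals were 38.0, 26.9 and 63.1, against medians of 23.1 at 40 mg/kg and 24.9 at 160 mg/kg, and 12 of 16 treated tumours lay below all vehicle tumours. Its log2 difference was -0.65 (SE 0.24) for both doses together, compared with -1.20 (SE 0.23) for the brighter one. Without vehicle tumour 3, the highest of all 19, that value was -0.34. Slfn8, Slfn9 and Slfn10-ps are related copies, and whether a probe of one also reads another was not tested. The Slfn10-ps probe set ran from 0.5 to 16 and did not pass the filter.

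Samd9l was the brightest member, with 922.7, 1690.4 and 1268.3 in vehicle tumours. At 40 mg/kg it ran from 141.3 to 1139.5 (median 299) and at 160 mg/kg from 86.3 to 511.7 (median 226). Here the groups overlapped in 1 tumour: 40 mg/kg tumour 6, at 1139.5, lay above vehicle tumour 1, and the other 15 treated tumours lay below all vehicle tumours. The share of all probe sets with 15 such tumours was not counted. The next highest treated tumour was 40 mg/kg tumour 8, at 628.2. The log2 differences from vehicle were -1.89 (SE 0.52) at 40 mg/kg and -2.61 (SE 0.52) at 160 mg/kg, 3.71-fold and 6.11-fold lower. Of the 31143 probe sets, 17 had a lower log2 difference than Samd9l for both doses together and 22 a lower one than Slfn8.

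**Figure D1:**
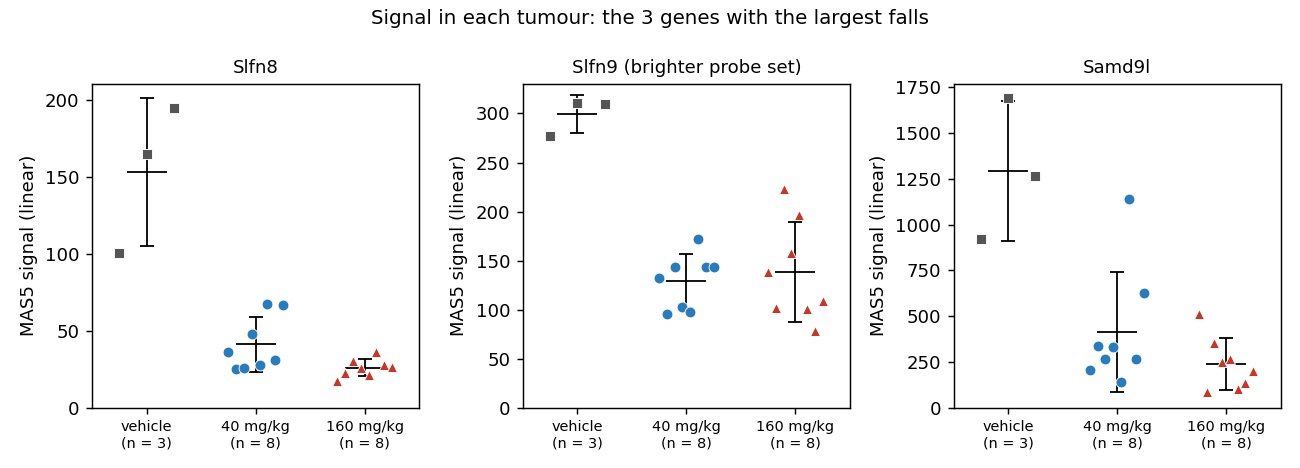
MAS5 signal (linear vertical axis from 0) of Slfn8, the brighter Slfn9 probe set and Samd9l in each tumour, with vehicle tumours as squares, 40 mg/kg as circles and 160 mg/kg as triangles, and horizontal lines and bars for the mean ± SD. All treated tumours lie below the vehicle tumours for Slfn8 and Slfn9, as they do in 2.01% of all probe sets tested. For Samd9l, 40 mg/kg tumour 6, at 1139.5, reaches into the vehicle range.

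The remaining long Schlafen, Slfn5, was dim. Its probe set that passed the filter did so on exactly 3 arrays. Vehicle tumours gave 22.2, 16.1 and 23.8. Those at 40 mg/kg ran from 10.4 to 23.7 (median 17.8) and those at 160 mg/kg from 9.3 to 31.8 (median 19.4), and the groups overlapped. The log2 difference of both doses from vehicle was -0.20 (SE 0.29). The 2 Slfn5 probe sets below the filter had vehicle means of 22.2 and 13 and treated means of 13.7 and 9.50, with 12 and 10 of 16 treated tumours below all vehicle tumours. So near the filter's signal of 19.7 to 33.3 these counts give no order of Slfn5 between groups.

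Of the intermediate Schlafens, Slfn3 was not called, and its treated signals spread to both sides of the vehicle tumours. It gave 20.7, 27.1 and 21.0 in vehicle tumours, against a range of 19.5 to 51.9 (median 37.5) at 40 mg/kg and of 9.4 to 48.2 (median 38.1) at 160 mg/kg. In all, 11 of 16 treated tumours lay above the vehicle tumours and 3 below them. The lowest were 160 mg/kg tumours 7 and 2, at 9.4 and 12.7. The log2 difference was 0.59 at 40 mg/kg and 0.29 at 160 mg/kg (SE 0.39 each).

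The vehicle signals of Slfn4 were 59.1, 68.4 and 96.4. It had a median of 66.8 (47.9 to 104.6) at the lower dose and of 60.7 (22.9 to 81.1) at the higher. The groups overlapped, with 6 of 16 treated tumours below the vehicle range and 1 above it. Its lowest values, 22.9 and 29.8, were those of 160 mg/kg tumours 2 and 7, the same pair as for Slfn3. The probe set shared by Slfn3 and Slfn4 ran from 5.0 to 31.8 in vehicle and from 2.2 to 32.9 in treated tumours. It did not separate the groups, and its log2 difference of 0.22 (SE 0.46) ran from -0.36 without vehicle tumour 1 to 0.73 without vehicle tumour 3.

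Of the short Schlafens, Slfn1, the T cell member after which the family was named, was at the bottom of the scale. One of its probe sets ran from 0.6 to 6.0 and the other from 0.3 to 12.2 over all 19 tumours, and neither exceeded the 40th percentile on any array. Slfn2, which T cells and monocytes need, gave 48.5, 37.1 and 29.8 in vehicle tumours. It ran from 19.2 to 38.3 (median 27.2) at 40 mg/kg and from 11.9 to 112.4 (median 27.8) at 160 mg/kg. The groups overlapped, with 10 of 16 treated tumours below the vehicle range and 2 above it. Those 2 were 160 mg/kg tumours 6 and 7, at 112.4 and 52.4, which differ from the other treated tumours in their source names (resistant in place of treated) although the tumour status of all 16 is resistant. Tumour 6 also had the highest summed signal of 16 macrophage and microglia markers, 8000 against 1030 to 4100 in the other 18 tumours, and tumour 7 had 3270. The part of such cells in the Slfn2 signal was not tested.

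**Figure D2:**
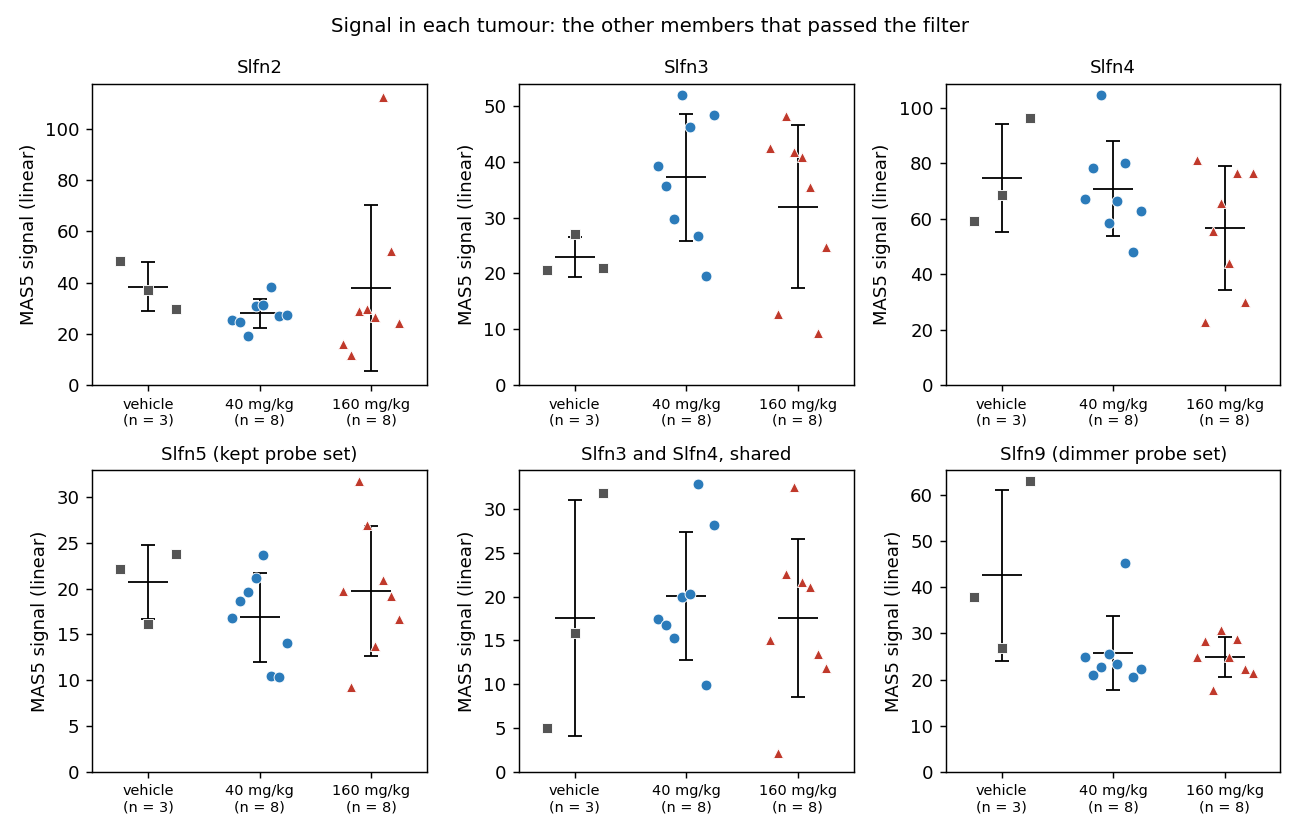
MAS5 signal (linear vertical axes from 0) of Slfn2, Slfn3, Slfn4, the Slfn5 probe set that passed the filter, the probe set shared by Slfn3 and Slfn4, and the dimmer Slfn9 probe set, 1 point per tumour, with the mean ± SD of each group. Treated and vehicle tumours overlap in all 6 panels, and 160 mg/kg tumour 6 stands out for Slfn2 at 112.4.

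The question left free by the choice of members was whether they differed between 160 and 40 mg/kg. None of the 9 probe sets passed the limma test, and neither did any of the 31143 probe sets (0%). Without adjustment Slfn8 had a p under 0.05, as had 6.81% of all probe sets (2122). Slfn8 was lower at the higher dose by a log2 difference of -0.54 (SE 0.22, unadjusted p = 0.0216, adjusted p = 0.676), with a 95% interval from -1.0 to -0.08. Samd9l had -0.72 (SE 0.38, adjusted p = 0.759), with an interval from -1.54 to 0.10, and without 40 mg/kg tumour 6 it had -0.47. The brighter Slfn9 probe set had 0.05, with an interval from -0.35 to 0.44. Slfn4 had -0.39 (-0.88 to 0.10), Slfn3 -0.31 (-0.91 to 0.30), Slfn2 0.13 (-0.52 to 0.77) and the kept Slfn5 probe set 0.18 (-0.31 to 0.67). The dimmer Slfn9 probe set had -0.02 and the shared Slfn3 and Slfn4 one -0.29. For all of them the adjusted p was between 0.676 and 0.987. The 8 tumours of each dose limit what this comparison can detect.

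**Figure D3:**
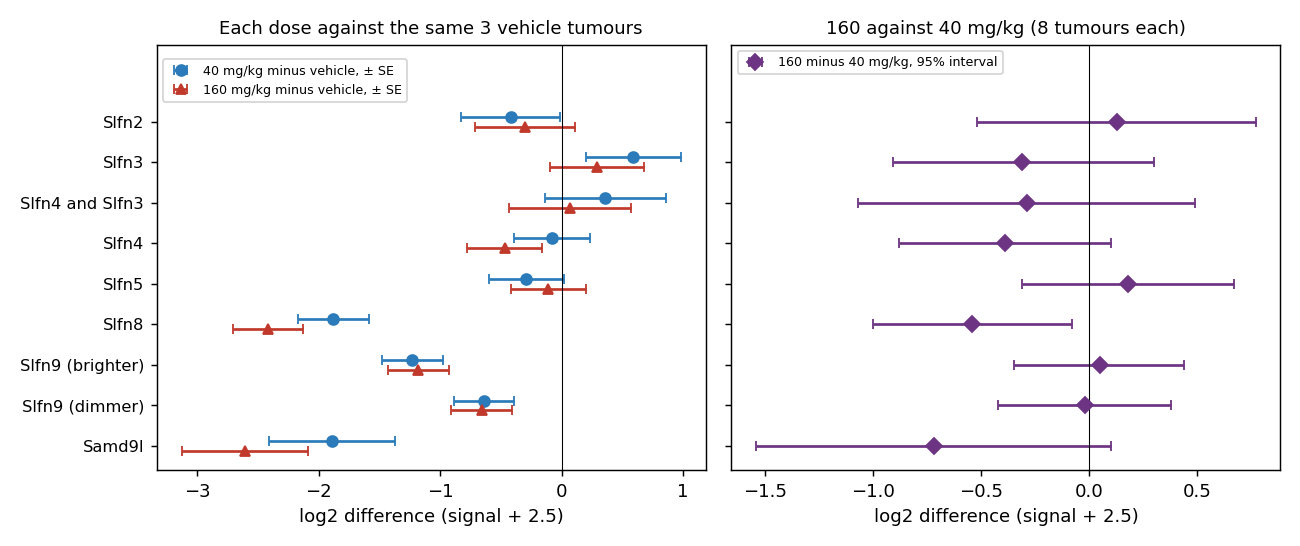
Log2 differences (horizontal axes, log2 of signal plus 2.5) of the 9 member probe sets that passed the filter; the left panel shows each dose minus the same 3 vehicle tumours with bars of ± SE, and the right panel 160 minus 40 mg/kg with 95% intervals. Slfn8, Slfn9 and Samd9l lie to the left of 0 against vehicle, and on the right the Slfn8 interval, from -1.0 to -0.08, is the single one that does not cross 0.

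The interferon pathway around the members was read from 2 lists. Of 32 measured effector genes (of 35 listed) 22 fell in resistant against vehicle tumours and 0 rose with limma, where 2.45% of 13454 genes fell. The list is not independent evidence of a direction, since it was drawn up with earlier results of these tumours known. Their median log2 change was -1.66, against -0.06 over all genes, and 32 of 32 were below 0, as were 57.5% of all genes. The filter needs 3 arrays, as many as there were vehicle tumours, so a gene bright in vehicle tumours alone could enter. How many entered in that way was not counted. Ifi35, an interferon-induced leucine zipper protein, fell by 2.04 (SE 0.31, adjusted p = 0.00142) and Rtp4, a chaperone of receptors that interferon induces, by 1.87 (SE 0.31, adjusted p = 0.0022). Ddx58, the RNA sensor RIG-I, fell by 1.15 (SE 0.20, adjusted p = 0.00341). The RNA-binding effectors Oasl1 (-2.46, adjusted p = 0.00437), Oasl2 (-2.65, 0.00504) and Ifit1 (-2.85, 0.00513) fell further. For these 6 genes 15 or 16 of the 16 treated signals were under every vehicle signal. All 16 were so in 2.01% of all probe sets, and the share with 15 was not counted. The 6 were taken for the smallest p in this contrast, so nothing is read from their separation. The count of 22 was 6 and 5 when vehicle tumours 2 and 3 were left out in turn and 4 when both arrays that stood apart were. Of the 16 measured signalling genes (of 20 listed) 4 fell and 0 rose: the factors Irf9 (-1.05, adjusted p = 0.00542), Irf1 (-1.06, 0.0106) and Irf7 (-1.15, 0.0286), and the feedback inhibitor Socs3 (-0.67, 0.0457). The factors Irf3 (-0.40, adjusted p = 0.059) and Irf5 (-0.54, 0.0828) did not pass. That count was 2, 1 and 0 when vehicle tumours 1, 2 and 3 were left out in turn and 1 when both arrays that stood apart were. The receptor subunits Ifnar1 and Ifnar2 had 0.03 and 0.53 (limma adjusted p = 0.952 and 0.224) and Stat2 had -0.03, and none of these passed. Of the 16 signalling genes 12 were below 0, as were 57.5% of all genes, with a median of -0.26. In the same contrast 5 of the 14 granule neuron lineage markers were called higher by limma and 0 lower. Over all genes 382 of 13454 were called higher. The list does not separate precursors from later stages, so this count gives no share of precursors or of tumour cells. Called were the adhesion protein Cntn2 (3.34, adjusted p = 0.000309) and Zic1 (0.51, 0.0179). So were the transcription factors Sox11 (0.89, 0.000417), Nhlh2 (1.05, 0.000838) and Neurod1 (1.22, 0.0125). Another 5 of the 14 had a log2 change below 0 and were not called: Atoh1 (-0.87), Barhl1 (-0.59), Gli1 (-0.35), Mycn (-0.19) and Barhl2 (-0.08). The count of markers called higher, examined after seeing the data, was 4, 3 and 3 when vehicle tumours 1, 2 and 3 were left out in turn. It was 3 when both arrays that stood apart were left out. The part of the share of tumour cells in the interferon and member signals was not tested. Between the doses, 32 of 32 effector genes were lower at 160 mg/kg (median log2 difference -0.61), as were 54.6% of all genes (median -0.02). With quantile normalization or array medians subtracted, 31 of the 32 were. In that comparison 0 of the 32 passed with limma and 15 had an unadjusted p under 0.05, as had 7.41% of all genes. The 32 genes were read in the same 16 tumours, so these counts are not independent observations. The 40 mg/kg tumours 6 and 8 had the highest effector means of the treated tumours (7.62 and 7.49).

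Differences between tumours of the same dose do not involve the vehicle tumours. Each of the 9 member probe sets was compared with the mean log2 signal of the 32 effector genes over the 8 tumours of each dose, 18 relations in all, with exact two-sided permutation tests adjusted over the 18. That mean was 7.62 and 7.49 in 40 mg/kg tumours 6 and 8 and 6.07 to 6.48 in the other 6. At 160 mg/kg it was 7.06 in tumour 1, 5.16 in tumour 6 and between them in the others. Vehicle tumours had 7.52, 8.13 and 8.05.

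Samd9l went with the effector mean at both doses. At 40 mg/kg Pearson's r was 0.93 (exact permutation p = 0.00124, adjusted 0.0136) and Spearman's rho 0.90 (p = 0.00456, adjusted 0.0411). At 160 mg/kg r was 0.90 (exact permutation p = 0.00151, adjusted 0.0136) and rho 0.93 (p = 0.00223, adjusted 0.0402). Without the 2 tumours farthest from the median, r was 0.73 and 0.88. Among the 13454 genes, 0.201% and 0.268% had an r at least as high.

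Slfn8 passed at the lower dose by Pearson's r and not by rho, and passed by neither at the higher dose; the difference between the doses was not tested. At 40 mg/kg r was 0.88 (exact permutation p = 0.00759, adjusted 0.0342) and rho 0.69 (p = 0.0694, adjusted 0.25). Without tumours 6 and 8 r was 0.39, so the relation rests on those 2 tumours. At 160 mg/kg r was -0.77 (exact permutation p = 0.0274, adjusted 0.0986) and rho -0.57 (p = 0.151, adjusted 0.389), and r was 0.04 without tumours 1 and 6. Tumour 1 had the highest effector mean of its dose and, at 17.6, the lowest Slfn8 signal of all 19 tumours. Its Samd9l signal of 511.7 was the highest of its dose.

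The brighter Slfn9 probe set had r of 0.55 at 40 mg/kg (exact permutation p = 0.188, adjusted 0.34) and -0.38 without tumours 6 and 8. At 160 mg/kg r was 0.54 (exact permutation p = 0.163, adjusted 0.34) and rho 0.83 (p = 0.0154, adjusted 0.0923), with r of 0.96 without tumours 1 and 6. Slfn3 had a similar pattern at 160 mg/kg, with r of 0.50 (exact permutation p = 0.225, adjusted 0.34) and rho of 0.81 (p = 0.0218, adjusted 0.098). Without tumours 1 and 6 its r was 1.00. Those tumours had the highest and lowest effector means of their dose, and the r values without them were not tested. The probe set shared by Slfn3 and Slfn4 had r of 0.85 at 40 mg/kg (exact permutation p = 0.0064, adjusted 0.0342) with rho of 0.62 (p = 0.115, adjusted 0.345), and r of 0.44 without tumours 6 and 8. Slfn2 had r of 0.50 at 40 mg/kg (exact permutation p = 0.227, adjusted 0.34) and -0.65 at 160 mg/kg (exact permutation p = 0.0904, adjusted 0.247). The remaining relations had adjusted p between 0.247 and 0.823 for r and between 0.588 and 0.703 for rho.

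**Figure D4:**
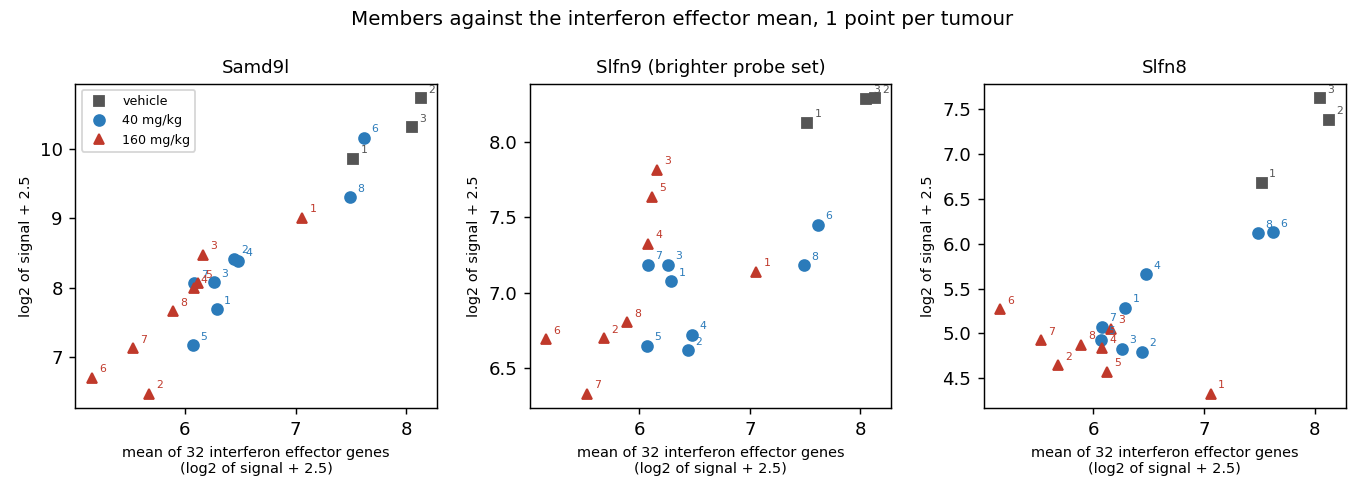
Log2 of signal plus 2.5 of Samd9l, the brighter Slfn9 probe set and Slfn8 (vertical axes) against the mean of 32 interferon effector genes on the same scale (horizontal axes), 1 point per tumour with its number. Within each dose Samd9l follows the mean (r of 0.93 and 0.90), while for Slfn8 the 40 mg/kg tumours 6 and 8 lie above the rest and 160 mg/kg tumour 1 lies lowest.

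The genes whose deviations from the group means over the 19 arrays were most like those of Samd9l were Irgm1 (r of 0.94), an interferon-induced GTPase, Ifit1 (0.92), which binds viral RNA, the large ubiquitin ligase Rnf213 (0.91), Rtp4 (0.89) and Gm20559 (0.89). Those most like Slfn8 were Zfp219 (0.82), Serpind1 (0.75), Slc25a37 (0.74), Hspg2 (0.72) and Atf3 (0.72), none of which was on the effector list. Zfp219 is a zinc finger factor, Serpind1 a thrombin inhibitor, Slc25a37 the mitochondrial iron importer mitoferrin, Hspg2 the matrix proteoglycan perlecan and Atf3 a stress-induced factor. Slfn8 and Samd9l had an r of 0.38 with each other. Slfn9 ranked 137 of 13453 genes for Samd9l (0.64) and 3307 for Slfn8 (0.18). These likenesses come from the same arrays and are given without a test.

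The genes next to the members on the chromosomes were read for the same comparison. Of the 4 nearest measured genes on each side of the Schlafen cluster, none was called: Unc45b (1.38), Nle1 (-0.02), Fndc8 (-0.57) and Rad51d (-0.20) on the side of Slfn5, and AI662270 (1.34), Ap2b1 (-0.18), 1700020L24Rik (-0.60) and Taf15 (-0.20) on the side of Slfn3, with limma adjusted p from 0.336 to 0.958. Beside Samd9l, the long noncoding RNA gene Gm20559 fell by 1.97 (adjusted p = 0.0428). Of its 16 treated signals 15 were under every vehicle signal, a count whose share over all probe sets was not taken. On the other side Vps50, a vesicle tethering subunit, had 0.00. The protease inhibitor Tfpi2 fell by 1.15 (adjusted p = 0.0348), and Gng11 had -0.79 (adjusted p = 0.0625) and Bet1 -0.16 (adjusted p = 0.484).

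In bulk tumour RNA, fewer cells of a type and less RNA per cell cannot be told apart. Lymphocyte markers were mostly dim, whereas 15 of the 16 macrophage and microglia markers passed the filter. Of 14 T and natural killer cell markers with a probe set 4 passed the filter, and their summed signal was 176 to 326 in vehicle, 135 to 264 at 40 mg/kg and 127 to 335 at 160 mg/kg tumours. The brightest were the kinase Zap70 (mean 79.2) and perforin, Prf1 (26.9), while Cd3d and Cd3e, chains of the T cell receptor complex, did not pass and stayed at or below 8.1 and 12.6. The B and plasma cell sum (2 of 6 passed) was 74.5 to 158, 42.8 to 112 and 56.4 to 94.1, and the neutrophil and monocyte sum (6 of 10) 99.2 to 291, 94.4 to 327 and 84.4 to 159. The dendritic cell sum (3 of 7 passed) was 213 to 307 in vehicle, 167 to 309 at 40 mg/kg and 118 to 257 at 160 mg/kg tumours. Its single called marker, Bst2 (log2 change -1.54), is also on the interferon effector list. Macrophage and microglia markers (brightest Lyz2, mean 576, and Ctss, mean 492; 0 called by limma at adjusted p under 0.05, and 0 at an unadjusted p under 0.05) summed to 1650 to 2590 in vehicle, 1150 to 4100 at 40 mg/kg and 1030 to 8000 at 160 mg/kg tumours. The endothelial sum (9 of 10) was 495 to 733, 415 to 651 and 398 to 549, with Flt1 called lower (-0.71, adjusted p = 0.0217). Fibroblast markers (10 of 10) summed to 3420 to 7060, 3410 to 7000 and 2240 to 8150. Skeletal muscle markers (10 of 10) summed to 1530 to 4410, 272 to 20300 and 268 to 8490. The 2 treated tumours with most Samd9l, 40 mg/kg tumours 6 and 8, had macrophage sums of 3210 and 2050, within the range of the other treated tumours. Their muscle sums were 11300 and 806. The part of any of these cells in the members' signals was not tested.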

How the data were processed

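Per the labels' protocols, total RNA from flash-frozen tumours was labelled with biotin and hybridized to Affymetrix arrays, 1 per tumour. The authors deposited linear signal intensities made with MAS5, per the submitters' processing notes; version and scaling target are not given in the sources used here. As generally used, MAS5 subtracts background and mismatch signal and scales each array, and its dim signals are noisy. The 2% trimmed mean was 149.4 to 149.5 on every array and the median 32.7 to 49.7. No scan date or detection call was used here, so no batch could be examined. Gene names are those of the Mouse 430 2.0 platform annotation, whose probe sets the table holds, although the series text names the 430A 2.0 array. After 64 control probe sets were left out, 34945 had 1 symbol, 932 several and 9160 none.

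Log2 values of signal plus 2.5 (the 10th percentile of all values) were fitted with limma 3.58.1 in R 4.3.3 (lmFit, then eBayes with a variance trend; 3 group means, 16 residual degrees of freedom, from which the 95% intervals were taken), adjusted by Benjamini-Hochberg, with calls at an adjusted p under 0.05, and the fit was tested on simulated arrays. A gene was represented by its kept probe set with the highest mean; all member probe sets are given. Array correlations ran from 0.908 to 0.963, with 0 identical pairs. The members, gene lists and tests were chosen with earlier results of these data known. The rule for named genes took all members, the 6 genes with the smallest p in each interferon list, the 2 brightest markers of each other list (given where a result needs them), the 5 most alike genes and the 4 nearest measured neighbours on each side (1 before Samd9l). Cd3d, Cd3e, Flt1, Ifnar1, Ifnar2, Stat2, Cntn2, Sox11, Nhlh2, Atoh1, Barhl1, Barhl2, Gli1 and Mycn were named after their values were seen. Alternatives were other pseudocounts, normalizations and filters, no variance trend, array weights, the compared groups alone, a replicate block, leaving out each array, and leaving out the 2 arrays least like the others. Calculations used Python 3.11.15 with scipy 1.17.1, and Biopython 1.88 for promoter alignments.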

Additional observations from a re-analysis of the deposited data

Results flagged for a closer look

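In 18 groups of 8 tumours (9 member probe sets at each dose) the gap between the most extreme tumour and its nearest neighbour was divided by the range of the group, on the log2 scale, and compared with Dixon's 95% critical value for 8 samples. Chance marks about 1 in 20 groups. The dimmer Slfn9 probe set exceeded it at 40 mg/kg, where tumour 6 stood above the others (45.2, ratio 0.73). The probe set shared by Slfn3 and Slfn4 exceeded it at 160 mg/kg, where tumour 2 stood below the others (2.2, ratio 0.56). Tumour 2 at 160 mg/kg is also one of the 2 arrays least like the others.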

How the results depend on the processing

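Slfn8, the brighter Slfn9 probe set and Samd9l kept negative differences from vehicle under all 29 alternatives, from -2.42 to -1.78, from -1.26 to -1.12 and from -2.47 to -1.92. Since this contrast led to the choice of genes, these refits are no independent support. Slfn9 was not called without vehicle tumour 3 or without the 2 arrays least like the others. Samd9l was not called without vehicle tumours 2 and 3 in turn, without those 2 arrays, or with the replicate block. In the fits without 1 array each, the count of member probe sets called ran from 1 to 3, that over all probe sets from 239 to 1674 (428, 474 and 239 without vehicle tumours 1, 2 and 3, against 1392), that of interferon effectors from 5 to 24 and that of signalling genes from 0 to 4. Array weights gave 5 member, 8907 probe set and 9 signalling calls. Replicate numbers recur across the groups, and the deviations of the 14 same-numbered pairs correlated at -0.128 to 0.090. Correlations over whole arrays do not settle whether same-numbered tumours share an origin or a processing step. The replicate block gave 2 member, 819 probe set, 9 effector and 2 signalling calls. Leaving out the 2 arrays gave 1, 274, 4 and 1. Subtracting array medians moved the split over all probe sets from 822 higher and 570 lower to 825 and 199, array weights gave 4098 and 4809, and the set without those 2 arrays 212 and 62. The causes were not tested. Between the doses, 0 member calls were made under any alternative, and over all probe sets 1 call was made without the variance trend and 0 otherwise. Differences near 0 between the doses changed sign: the brighter Slfn9 probe set was -0.00 with array weights and ran from -0.06 to 0.15 without 1 array, and the dimmer was 0.02 with quantile normalization, 0.04 with array medians subtracted and -0.06 to 0.09 without 1 array. Slfn2 ran from -0.13 to 0.29. Among the relations with the effector mean, those without the 2 farthest tumours changed sign for Slfn2 (-0.10), Slfn5 (0.35) and the brighter Slfn9 probe set (-0.38) at 40 mg/kg and for Slfn8 (0.04) at 160 mg/kg. Without 1 tumour r ran from -0.22 to 0.48 for Slfn3, from -0.09 to 0.45 for Slfn4 and from -0.03 to 0.95 for the dimmer Slfn9 probe set at 40 mg/kg, and from -0.34 to 0.02 for that probe set and from -0.03 to 0.34 for the shared Slfn3 and Slfn4 one at 160 mg/kg. The compared groups alone are all 3 groups for treated against vehicle, so that alternative was run for the doses only. Signals near the filter limit what can be said of Slfn1, Slfn5 and the shared probe set.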
